A study of Mus musculus with 8 samples.

Results

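The collagen gene family was examined here through its transcription start sites in mouse skin. A member was every gene symbol made of Col, a chain-type number, the letter a and a chain number, so that Col1a1 qualified and collagen-modifying enzymes did not. The rule found 33 genes among the 16094 that carried at least 1 CAGE cluster, and these 33 genes held 168 of the 84475 clusters. CAGE reads RNA from its cap, and a cluster is a short stretch of the genome, on 1 strand, in which the 5′ ends so read gathered.

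The study profiled facial skin in bulk from 8 C57BL/6 mice at postnatal day 28. The lesional skin of 4 of them came from animals whose genotype is given as Nectin-cre(+);Ikk2FL/FL in the sample labels and with Nestin-cre in the series title. Ikk2 is a kinase that activates NF-κB, and the cells in which this Cre is active are not stated in the sources used here. The other 4 samples were non-lesional skin of mice labelled Control, so that lesion and genotype changed together and cannot be told apart. The names of the 8 value columns matched none of the samples, so levels were not used, the deletion of Ikk2 was not checked, and lesional and control skin were not compared. What follows describes the positions of the clusters in the single catalogue made for all 8 samples. In bulk skin the cell type that used a start is not known, and fewer cells of a type and less RNA per cell cannot be told apart. Marker genes of each cell class searched for had clusters, 32 of 34 in all: 5 of 5 for fibroblasts, 4 of 4 for keratinocytes and 4 of 6 for cartilage and bone, where Bglap and Cnmd had none. Of the latter 4, Ibsp had 1 cluster of 2 bp and Comp 1 of 6 bp. Acan had 1 of 98 bp, and Sox9 had 10 with the widest of 138 bp. Without the share of all RefSeq genes that had a cluster, these counts do not show that a cell type was present.

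Collagens are the main structural proteins of the extracellular matrix, built from alpha chains wound into a helix. Fibrillar collagens assemble into the fibrils that give dermis its tensile strength, with type I as the bulk and types III and V as partners. Basement membrane collagens form the type IV network, the anchoring fibrils of type VII below it, and the transmembrane type XVII of keratinocyte hemidesmosomes above it. The remaining members include the beaded filaments of type VI, the fibril-associated types XII, XIV and XVI, and the type VIII network around vessels.

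The promoters of 5 genes are shown as examples from the family: a type I chain, a type III chain without GC box letters, and the anchoring fibril gene. The others are the hemidesmosomal gene, with a pair of matches to the TATA box letters, and the gene with separate start regions. Each run is the 250 bases before the annotated start, 5′ to 3′ along the gene, from RefSeq in build GRCm38.p6. Capitals mark matches on either strand to the TATA box (letters TATAAA), to the CCAAT box, and to the GC box (letters GGGCGG). The clusters are in build mm9, so none was placed on these sequences.
Col1a2 (chr6:4505368-4505617, plus strand): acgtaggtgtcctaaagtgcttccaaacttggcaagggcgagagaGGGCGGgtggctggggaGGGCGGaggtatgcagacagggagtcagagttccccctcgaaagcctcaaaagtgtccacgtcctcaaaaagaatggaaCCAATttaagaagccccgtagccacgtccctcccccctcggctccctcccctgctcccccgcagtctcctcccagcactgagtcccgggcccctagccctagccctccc
Col3a1 (chr1:45311288-45311537, plus strand): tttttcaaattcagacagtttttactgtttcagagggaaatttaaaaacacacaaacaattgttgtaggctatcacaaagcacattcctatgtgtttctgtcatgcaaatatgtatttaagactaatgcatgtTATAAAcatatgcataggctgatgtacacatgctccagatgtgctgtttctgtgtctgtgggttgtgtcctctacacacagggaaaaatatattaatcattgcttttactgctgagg
Col7a1 (chr9:108953336-108953585, plus strand): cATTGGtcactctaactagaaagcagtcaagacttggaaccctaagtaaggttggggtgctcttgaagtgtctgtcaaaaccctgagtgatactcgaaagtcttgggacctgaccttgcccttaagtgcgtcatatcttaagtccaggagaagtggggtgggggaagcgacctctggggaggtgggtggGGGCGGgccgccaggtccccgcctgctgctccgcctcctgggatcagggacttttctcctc
Col17a1 (chr19:47692043-47692292, minus strand): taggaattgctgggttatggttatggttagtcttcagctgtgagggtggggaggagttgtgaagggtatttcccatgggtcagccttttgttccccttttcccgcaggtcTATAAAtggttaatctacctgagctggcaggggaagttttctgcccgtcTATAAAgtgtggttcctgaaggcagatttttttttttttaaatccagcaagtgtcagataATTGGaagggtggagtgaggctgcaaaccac
Col18a1 upstream start (chr10:77166531-77166780, minus strand): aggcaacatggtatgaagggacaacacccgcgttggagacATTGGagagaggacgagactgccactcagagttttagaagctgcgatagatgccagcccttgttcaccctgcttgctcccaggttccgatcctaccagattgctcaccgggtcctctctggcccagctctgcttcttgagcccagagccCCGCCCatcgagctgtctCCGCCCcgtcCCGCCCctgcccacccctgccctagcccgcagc
Col18a1 downstream start (chr10:77113706-77113955, minus strand): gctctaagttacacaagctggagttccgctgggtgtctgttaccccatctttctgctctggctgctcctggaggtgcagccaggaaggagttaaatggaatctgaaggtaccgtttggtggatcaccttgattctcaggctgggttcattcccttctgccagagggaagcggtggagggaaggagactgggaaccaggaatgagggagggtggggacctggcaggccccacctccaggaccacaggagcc
In the Col3a1 run the only match was a TATA box whose first base lay 117 bases before the start. The Col17a1 run held TATA boxes at 140 and 91 bases before the start and a CCAAT box on the reverse strand at 31. The Col1a2 run held no TATA box, but a CCAAT box at 109 bases and GC boxes at 205 and 188 bases before the start. Col7a1 had a GC box at 61 bases and a CCAAT box on the reverse strand at 249. Upstream of the first Col18a1 start lay GC boxes at 61, 43 and 33 bases and a CCAAT box at 210, all on the reverse strand. The run before the second Col18a1 start held none of these letters.

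The RefSeq table lists 44 collagen genes of the mouse, and 33 of them had a cluster in skin. All 10 basement membrane collagens had one, as did 9 of 11 fibrillar collagens and 14 of 23 of the others. With clusters of at least 10 bp alone these numbers were 9, 8 and 14. The share of all RefSeq genes with a cluster was not counted, so whether these numbers are high is not known. Neither Col2a1, the cartilage fibrillar chain, nor Col10a1, the chain of hypertrophic cartilage, had a cluster. The rest of the 11 without one were Col11a2, Col9a1, Col9a2, Col6a4, Col19a1, Col20a1, Col22a1, Col26a1 and Col28a1. Under its older symbol Emid2, which the rule does not take, Col26a1 had 1 cluster of 9 bp. The cartilage-associated chains Col11a1 and Col9a3 did have clusters, with 3 and 1.

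Clusters were spread unevenly over the family. A member had a median of 3 clusters, beside 2 over all 16094 genes. A single cluster was found for 10 members (30.3%), beside 45.7% of all genes, and 10 or more clusters for 4 members (12.1%), beside 5.06%. Those 4 were Col1a1 with 24 clusters, Col1a2 with 23, Col17a1 with 13 and Col4a2 with 11. The 2 type I genes alone held 47 of the 168 clusters (28.0%). Among all genes they ranked 25 and 31 in number of clusters.

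**Figure D1:**
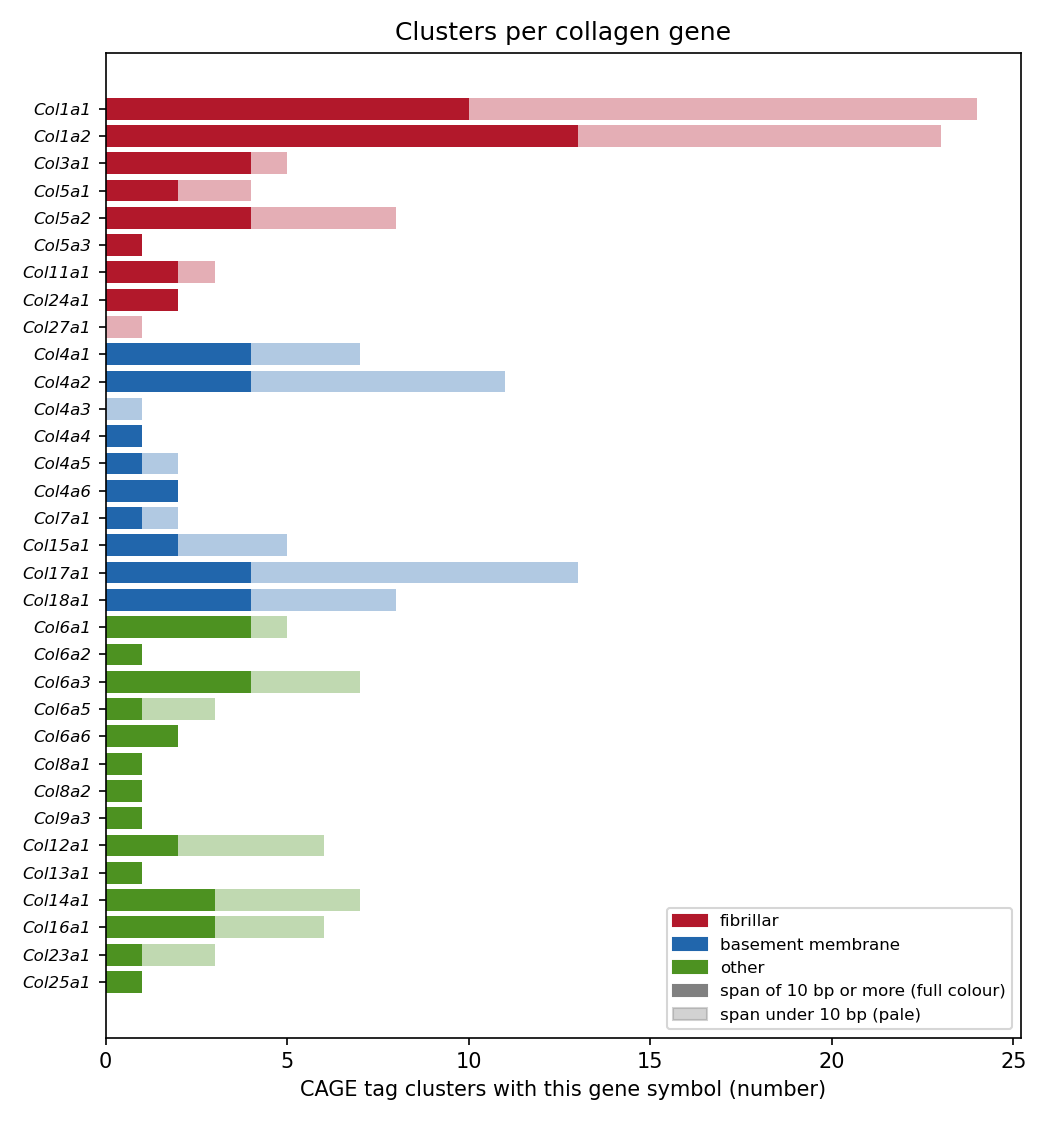
Number of CAGE clusters carrying each collagen symbol (x axis), 1 bar per gene, coloured by group. Full colour counts clusters with a span of 10 bp or more and pale colour those under 10 bp. Col1a1 (24) and Col1a2 (23) stand beyond Col17a1 (13) and Col4a2 (11), and 10 genes have 1 cluster.

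The span of a gene's widest cluster is its end minus its start. Below, main start and main region name the place of that cluster. Whether it was also the most used start was not tested. The widest span was 155 bp in the median member (quartiles 78 and 188) and 110 bp over all genes (67 and 159). Collagen genes are long, and among 8031 protein-coding genes of at least 15000 bp the median was 128 bp (87 and 173). By group the median was 191 bp for fibrillar, 155 bp for basement membrane and 127.5 bp for the other collagens. Col6a3, the large chain of type VI, had the widest at 221 bp, then Col1a2 at 219 bp. At the other end stood Col4a3, a type IV chain of specialised basement membranes, with 2 bp, and Col27a1 with 9 bp. How far span follows the number of reads at a start was not tested, since levels were not used.

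**Figure D2:**
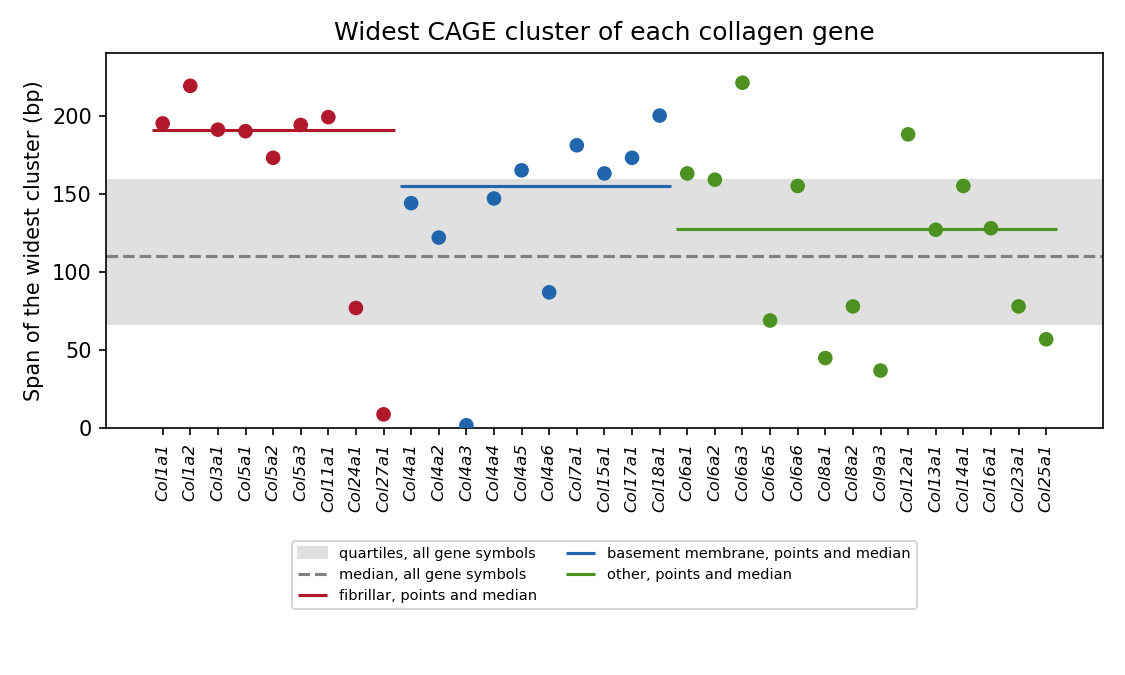
Span in bp of the widest CAGE cluster of each collagen gene (points), with group medians as coloured lines, over the median (dashed) and quartiles (grey band) of all 16094 genes. The 7 fibrillar genes other than Col24a1 and Col27a1 lie between 173 and 219 bp, above the upper quartile of all genes at 159 bp.

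Narrow clusters made up about the same share of the family as of all genes. Of the 168 collagen clusters 81 had a span under 10 bp (48.2%, 95% Wilson interval 40.8 to 55.7%, counting error only), beside 48.4% over all genes. The share was 46.5% in fibrillar, 55.8% in basement membrane and 42.2% in the other collagens, and these intervals overlap. The median span was 10 bp (quartiles 3 and 60.25).

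The 135 clusters that were not the widest of their gene fell into a near and a far set. Within 500 bp of the widest cluster lay 68 of them (50.4%), 39 upstream and 29 downstream, with a median span of 4 bp. Another 63 lay more than 500 bp downstream, in 11 genes, and only 4 more than 500 bp upstream, in Col6a1 and Col15a1. The far downstream clusters had a median span of 9 bp, and 30 of them reached 10 bp. Fibrillar genes had 30.6% of their additional clusters near the widest one. In basement membrane genes that share was 69.0%, and in the other collagens 64.5%. The low fibrillar share came from the type I genes, with 3 of 23 near in Col1a1 and 3 of 22 in Col1a2, while the remaining fibrillar genes had 13 of 17 near (76.5%). Col1a1 and Col1a2 held 39 of the 63 far downstream clusters (61.9%).

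Type I collagen is made of the Col1a1 and Col1a2 chains, the most abundant protein of dermis. The widest Col1a1 cluster was chr11:94797530-94797725 on the plus strand (195 bp). Around it lay 3 narrow neighbours, and 20 further Col1a1 clusters lay 1373 to 10057 bp downstream. One of these, chr11:94799223-94799389, had a span of 166 bp at 1693 bp downstream, close to that of the main start region, and others of 81 and 71 bp lay at 9591 and 10057 bp. The widest Col1a2 cluster was chr6:4455616-4455835 on the plus strand (219 bp), with 3 neighbours upstream within 393 bp. Its other 19 clusters began only at 14210 bp downstream and ran to 30980 bp, with a median span of 13 bp and a widest of 79 bp.

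Many clusters inside these genes carried no gene symbol at all. From 500 to 15000 bp downstream of the widest Col1a1 cluster lay 62 clusters on its strand, 20 with its symbol and 42 with none. That was the third highest number among all 16094 genes and the highest among the 8031 long protein-coding genes. Col1a2 had 21 in that window (5 with its symbol, 16 with none; rank 37 of all genes). Col3a1, whose protein forms fibrils together with type I, had 7, all without a symbol. Over the family the window held 123 such clusters, 33 named and 90 unnamed, and Col1a1 alone gave 62 of the 123. Unnamed clusters on the opposite strand numbered 1, beside 90 on the same strand. Over all genes these numbers were 3414 and 11669. An unnamed opposite-strand cluster was found for 3.03% of members, beside 12.1% of all genes and 7.13% of long protein-coding genes. The window held 5 or more same-strand clusters in 6 of 33 members (18.2%), beside 5.8% of all genes and 5.01% of long protein-coding genes. It held at least 1 in 36.4% of members, beside 40.8% and 41.8%. The 6 members were Col1a1, Col1a2, Col3a1, Col6a1, Col6a2 and Col17a1, while 21 of 33 had none. Such numbers were not particular to collagens. In the same window the keratinocyte markers Krt5, Krt1, Krt10 and Krt14 had 28, 21, 13 and 8. The skeletal muscle markers Myh4, Acta1, Ttn and Ckm had 44, 16, 11 and 7. Of the remaining markers only Sox9 with 11 and Acta2 with 6 reached 5. With clusters of at least 10 bp alone, 3 of 31 members had 5 or more (9.68%; Col1a1 with 32, Col1a2 with 11, Col3a1 with 6), beside 0.906% of all genes. With a window ending at 10000 bp it was 3 of 33 (9.09%; Col1a1 with 38, Col1a2 with 8, Col6a1 with 6), beside 4.51%.

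Counted from 500 bp downstream along the whole length of each gene, as annotated in GRCm38.p6, the same 3 fibrillar genes had the most. Unnamed same-strand clusters numbered 60 along the 16819 bp of Col1a1, 50 along the 35926 bp of Col1a2 and 53 along the 38169 bp of Col3a1. These 3 genes held 163 of the 272 unnamed same-strand clusters counted over all 33 members, and 14 members had none. On the opposite strand 4 unnamed clusters were found over all members. Counts along the gene length were not made for all genes, so whether these numbers are high is not known. Some of the same-strand unnamed clusters were as broad as a main start region. In Col1a1 the broadest was 210 bp at 14883 bp downstream, wider than the 195 bp of the main region. In Col1a2 it was 161 bp at 34899 bp, and in Col3a1 171 bp at 9959 bp. A span of 50 bp or more was reached by 14 unnamed clusters in Col1a1, 12 in Col1a2 and 14 in Col3a1. The last unnamed clusters counted lay at 16589, 35425 and 37284 bp. Counting stopped at the annotated length, so whether such clusters continue beyond it was not tested. Whether they lie in exons was not tested, since no mm9 annotation was used, nor was the share of them that are starts of transcripts.

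**Figure D3:**
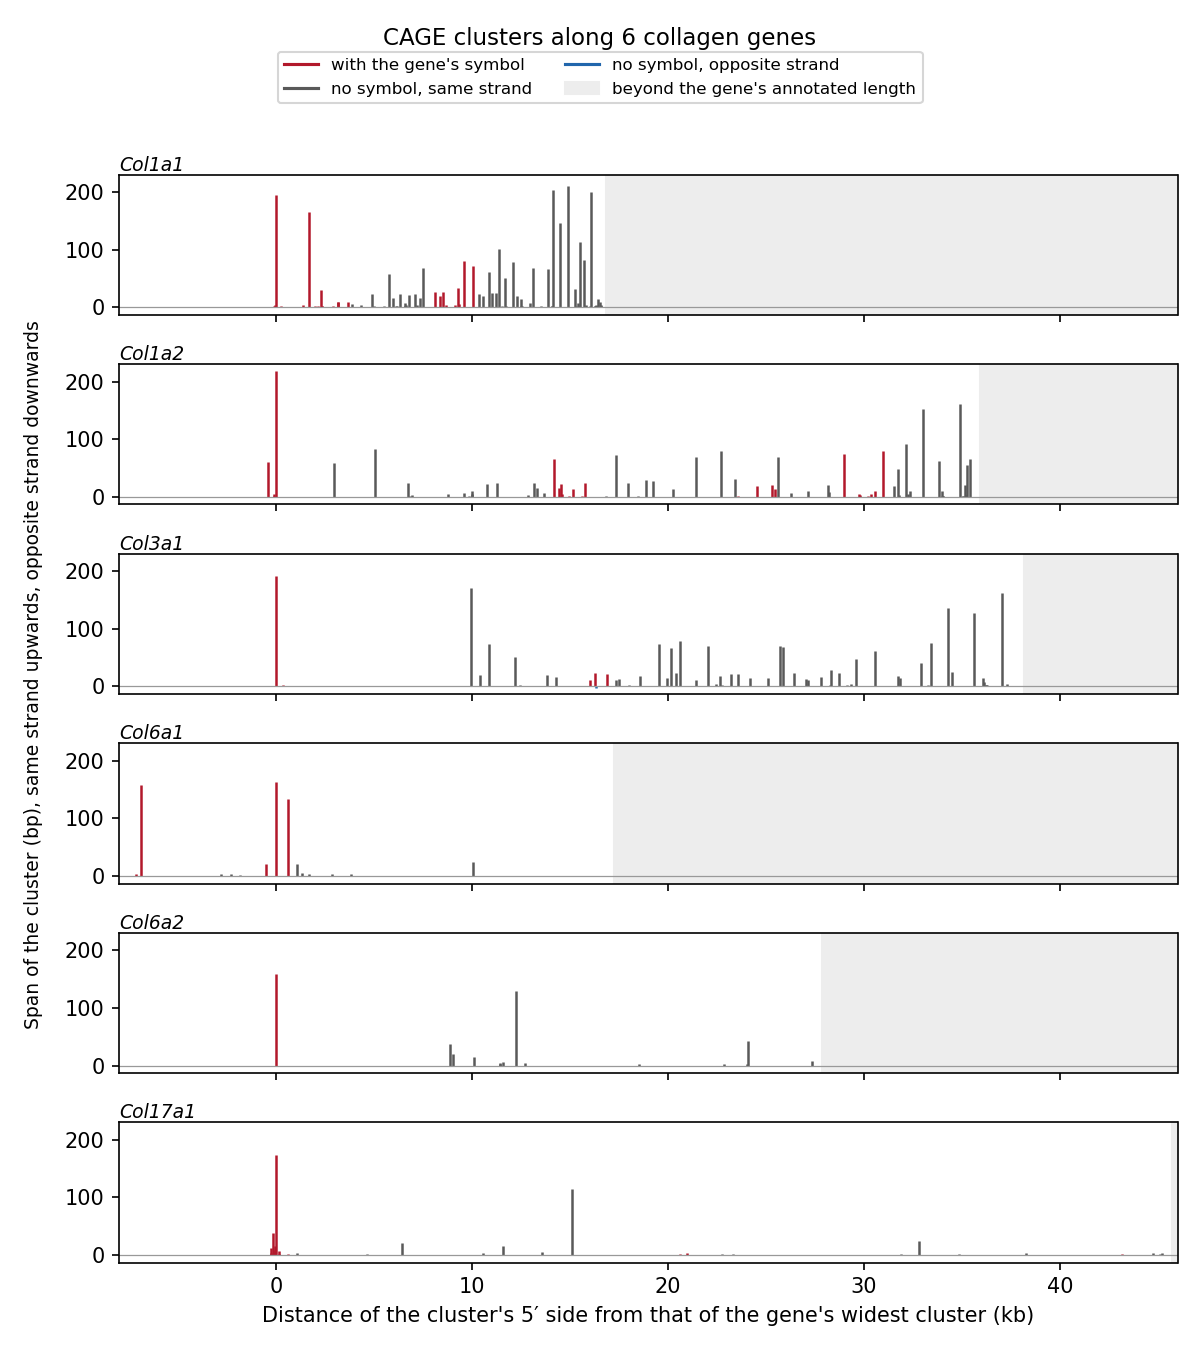
CAGE clusters along 6 collagen genes. The x axis is the distance in kb from the 5′ side of the gene's widest cluster, the y axis the span in bp (same strand upwards, opposite strand downwards). Clusters with the gene's symbol are red and unnamed ones grey. Shading lies beyond the annotated length as counted from the widest cluster, where clusters were not drawn. Unnamed clusters follow the strand of the gene, with 1 small exception in Col3a1, and reach spans of 210 bp in Col1a1 and 161 bp in Col1a2 near the far end.

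The remaining fibrillar genes had fewer named clusters than the type I genes. Unnamed same-strand clusters from 500 bp downstream along the gene numbered 53 for Col3a1, 11 for Col5a1 and 6 for Col5a2. They numbered 1 for Col5a3 and 0 for Col11a1, Col24a1 and Col27a1. The clusters described next are the named ones. Type V collagen, which sets fibril diameter, had 4 clusters for Col5a1, all within 347 bp with the widest, chr2:27741881-27742071 (190 bp), lying farthest downstream. Col5a2 had 8, of which 7 lay around chr1:45559879-45560052 (173 bp) and 1 of 9 bp lay 80768 bp downstream. Col3a1 and Col5a2 are neighbours on chromosome 1, on opposite strands, with 191672 bp between their main starts. Col3a1 itself had 5 clusters, the widest chr1:45368380-45368571 (191 bp) and the other named ones of at most 24 bp, 3 of them between 16053 and 16897 bp downstream. Col5a3 had a single cluster of 194 bp, and Col11a1 had 3 within 393 bp, the widest of 199 bp. Col24a1 had 2 clusters with 77 bp as the wider.

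Type IV collagen genes lie head to head in pairs, so that each pair is read outwards from a shared region. The widest clusters of Col4a1, chr8:11312681-11312825 on the minus strand, and Col4a2, chr8:11312800-11312922 on the plus strand, overlapped by 25 bp. Both chains of the common basement membrane network thus began inside 1 stretch. That stretch held 7 Col4a1 and 11 Col4a2 clusters in 1121 bp, with 10 overlaps between a cluster of one gene and a cluster of the other. Of the Col4a2 clusters 5 began before the 5′ side of the widest Col4a1 cluster, and 3 Col4a1 clusters ended beyond the start of the widest Col4a2 cluster. The annotated starts in GRCm38.p6 also cross, with that of Col4a2 minus that of Col4a1 at -21 bp.

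The other pairs were spaced differently. Col4a4 and Col4a3 lay 63 bp apart on chromosome 1, with a single cluster each, of 147 bp for Col4a4 but 2 bp for Col4a3. Col4a6 and Col4a5 lay 1237 bp apart on chromosome X, with widest clusters of 87 and 165 bp. Their annotated starts are 1343 bp apart in GRCm38.p6. Among all 7872 widest clusters on the minus strand, 1241 (15.8%) had a plus-strand partner from 200 bp before to 2000 bp after their 5′ side. The median gap of those pairs was 108 bp, and 181 of them (14.6%) crossed as Col4a1 and Col4a2 did.

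**Figure D4:**
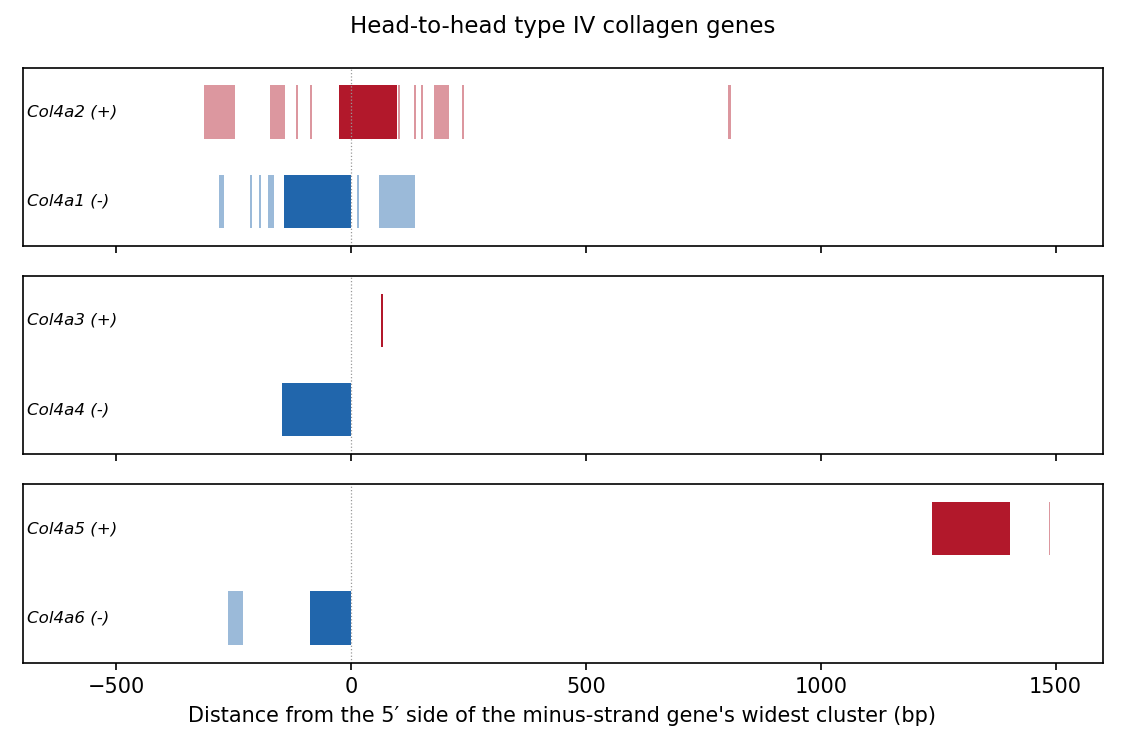
Clusters of the 3 head-to-head type IV collagen pairs. The x axis is the distance in bp from the 5′ side of the minus-strand gene's widest cluster (dotted line). Plus-strand genes are red and minus-strand genes blue, dark for the widest cluster and pale for the others. The pair Col4a1 and Col4a2 overlaps by 25 bp, the other gaps are 63 and 1237 bp.

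Divergent clusters without a symbol were not found beside collagen starts. Within 500 bp upstream on the opposite strand, 0 of 33 had one, which allows a share of up to 9.09% by the limit of 3 counts and 10.4% by the upper end of the 95% Wilson interval (counting error only). The share over all genes was 9.46% (1522 of 16094), between these limits, so the family cannot be set apart from all genes on this count.

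The other basement membrane collagens each had 1 main region, apart from Col18a1. Col7a1, the anchoring fibril gene, had its widest cluster at chr9:108855605-108855786 on the plus strand (181 bp) and 1 of 2 bp lying 766 bp downstream. Col17a1 had 13 clusters, 9 of them in the main region around chr19:47766349-47766522 on the minus strand (173 bp). A further 4, with a median span of 2 bp, lay 608 to 43181 bp downstream, and 16 unnamed clusters followed its strand along the gene. Of these the broadest was 114 bp at 15101 bp downstream. Col15a1, a basement membrane proteoglycan chain, had 5 clusters from 617 bp upstream to 284 bp downstream of chr4:47221030-47221193 (163 bp).

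Col18a1 is the precursor of endostatin and is known to be read from separate promoters. Its widest cluster was chr10:76629107-76629307 on the minus strand (200 bp). A second region began 52579 bp downstream, where the widest cluster was chr10:76576652-76576728 (76 bp). The annotated starts in GRCm38.p6 are 52825 bp apart. Of its 8 clusters 6 lay between 52579 and 77621 bp downstream. The sequences printed for its upstream and downstream starts differed in that only the upstream run held GC and CCAAT boxes.

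Among the type VI chains, Col6a1 had 3 broad clusters on the minus strand of chromosome 10: chr10:76181751-76181914 of 163 bp, 1 of 157 bp lying 6893 bp upstream, and 1 of 134 bp lying 624 bp downstream. Distances for Col6a1 were taken from the widest of these, and which of them begins the gene was not tested. From its most upstream cluster of at least 10 bp, the window of 500 to 15000 bp held 11 same-strand clusters in place of 7. Its partner Col6a2 had its widest cluster 95730 bp from that of Col6a1 on the same strand. Col6a2 had 1 named cluster of 159 bp and 13 unnamed ones along the gene, the broadest of 129 bp at 12248 bp downstream. Col6a3 had 7 clusters, 4 of them 14118 to 51019 bp downstream of chr1:92740452-92740673 (221 bp). The type VI chains Col6a5 and Col6a6 had 3 and 2 clusters, all within 500 bp of the widest, of 69 and 155 bp.

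The fibril-associated collagens differed from each other. Col12a1 (6 clusters, widest 188 bp) and Col14a1 (7 clusters, widest 155 bp) had all clusters near the main start, within stretches of 308 and 349 bp between outermost 5′ sides. Col16a1 had 6, of which 3 lay more than 500 bp and up to 7518 bp downstream. Single clusters were found for Col8a1 (45 bp) and Col8a2 (78 bp), the chains of the type VIII network. The transmembrane collagens besides Col17a1 were Col13a1 with 1 cluster of 127 bp, Col23a1 with 3 (widest 78 bp) and Col25a1 with 1 of 57 bp.

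Promoter sequence was compared over 29 RefSeq windows of 27 members, all of them genes with a CAGE cluster. Beside them stood all 32851 windows of 27025 genes, taken whether or not the gene had a cluster. The part of this difference in the contrasts that follow was not tested. A GC box was present in 19 of 29 (65.5%), beside 32.7% of all windows, and in 5 of 7 fibrillar, 5 of 10 basement membrane and 9 of 12 other windows. A CCAAT box was present in 11 (37.9%), beside 33.8%, and in 3 of 7 fibrillar, 6 of 10 basement membrane and 2 of 12 other windows. A TATA box was present in 3 (10.3%), those of Col3a1, Col13a1 and Col17a1, beside 12.4%. Median GC content was 60.8% against 52.4% for all windows, and its part in the GC box share was not tested. The median CpG ratio, observed over expected from base content, was 0.47 against 0.37. Col3a1 stood lowest on both, with 35.2% GC and no CpG, and Col5a1 had the most GC at 76.4%. The 3 windows with a TATA box belonged to genes with widest clusters of 127 to 191 bp, within the 9 to 221 bp of the other 26 windows. A match is a description of these letters and not a site in use. Col1a1, Col4a3, Col5a2, Col9a3, Col12a1 and Col14a1 had no entry in the promoter table.

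Genes that make, process and bind collagen had the same median number of clusters as the collagens. Of 46 such genes 43 had a cluster, 150 in all, with a median of 3 per gene, beside 2 over all genes. Their median widest span was 120 bp, beside 155 bp in collagens and 110 bp over all genes. A single cluster was found for 17 of 43, beside 10 of 33 collagens and 7352 of 16094 genes. All 15 prolyl and lysyl hydroxylases and their partners had one (48 clusters), among them P4hb, the shared subunit of prolyl 4-hydroxylase, with 7. Of these 15 genes 6 were found under older symbols, which the collagen rule does not take. Of 5 chaperones and secretion genes 4 did (9 clusters), of which Serpinh1, the collagen chaperone HSP47, had 6, the widest of 175 bp. Propeptide processing genes numbered 7 of 8, where Bmp1, the procollagen C-proteinase, had 8 clusters. All 5 crosslinking enzymes had clusters (12), with 6 for Lox, the lysyl oxidase. All 5 fibril-binding genes did too (28), and Dcn, the fibril-spacing proteoglycan decorin, had 11. Receptors and uptake genes numbered 7 of 8, with 10 clusters for the integrin chain Itgb1. Mia3, Tll2 and Itga10 had none. In the window of 500 to 15000 bp downstream, 4 of 43 had 5 or more same-strand clusters, beside 5.8% of all genes and 5.01% of long protein-coding genes. The 4 were Serpinh1 with 10, Bgn with 8, P4hb with 6 and Sparc with 5.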

How the data were processed

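CAGE libraries were made from total RNA of 8 samples, which per the labels' protocols was isolated on spin columns, checked for integrity and turned into libraries by kit. Reads were processed with BWA and HISAT2 on build mm9, per the submitters' processing notes, which give no versions. The authors deposited 1 catalogue of clusters with chromosome, start, end, strand, gene symbol and 8 value columns. The rules for forming clusters and assigning symbols, and the base from which starts count, were not given in the sources used here, so coordinates are as deposited. The 8 value columns matched no sample label and were not used, so depth is not reported and the planned tests between groups were not run.

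Clusters were selected by symbol, and distances were taken between 5′ sides (start on the plus strand, end on the minus strand) relative to the widest cluster of each gene. Rows with a symbol numbered 47524, since some of the 46376 clusters with a gene carry more than 1 symbol. Lengths, promoter windows and older symbols came from RefSeq tables of GRCm38.p6, with no conversion between builds. Family values were set beside those of all genes with no test, since genes are not replicates. All members could be named, with fuller values for 16 main collagens of skin and the 5 with the most clusters. The members and gene lists were chosen with earlier results of these data known. The counting code was tested on simulated data. Alternatives concerned the smallest span, joining of clusters, shared symbols, the window and the choice of start. Python 3.11.15, pandas 2.3.3, numpy 2.4.6, scipy 1.17.1 and matplotlib 3.10.9 were used.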

Additional observations from a re-analysis of the deposited data

How the results depend on the processing

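Keeping only clusters of at least 10 bp, the median number per collagen gene went from 3 to 2 (from 2 to 1 over all genes) and the number of genes with a cluster from 33 to 31, without Col4a3 and Col27a1. Same-strand downstream clusters went from 123 to 60 with that setting, to 65 in a window ending at 10000 bp, and to 126 from the most upstream start. Members with 5 or more went from 6 to 3 under each of the first 2 of these settings and stayed at 6 under the third. The third took only genes with a cluster of at least 10 bp. It gave 6 of 31 members (19.4%) beside 8.12% of 14678 genes, in place of 18.2% beside 5.8%. Joining clusters up to 100 bp apart gave a median of 2 per gene (1 over all genes), a share under 10 bp of 30.7% in place of 48.2%, and a median widest span of 194 bp in place of 155 bp. The share and span over all genes then were 23.2% and 124 bp. The overlap of Col4a1 and Col4a2 (-25 bp) and the gap of Col4a6 and Col4a5 (1237 bp) were the same with clusters of at least 10 bp, and Col4a4 and Col4a3 gave no value there. No collagen cluster was shared with another symbol. The alternatives for downstream clusters, for genes with a cluster and for the widest span were chosen after seeing the data. No paired analysis was possible because no value column has a sample's name, and for the same reason other choices of normalization, low-value filter, pseudocount, replicate block and left-out replicates were not run. Without levels, a narrow cluster of few reads and a narrow start of many reads look alike.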
